A study of Homo sapiens with 4 samples.

Results

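HT29, a line from a human colorectal adenocarcinoma, was compared between 2 culture media over all of its expressed genes. Wild-type HT29 cells, as the labels describe them, were kept for 7 days in HPLM or in RPMI-1640, each with 10% fetal bovine serum and 1% penicillin and streptomycin, and poly(A) RNA was sequenced. The series holds the same pair of media for the lung adenocarcinoma line H441, and its title names amino acid supplementation and lipid nanoparticles that carry mRNA. The HT29 comparison asks how the transcriptome of this line differed between the conventional and the plasma-like medium. The deposited table gives TPM, a transcript level corrected for gene length and scaled to one total per library, for 58051 gene identifiers, and the genes described here are the 16352 with at least 1 TPM in at least 3 of the 6 HT29 libraries. GEO lists 1 HT29 sample per medium, while the tables hold 3 numbered columns for each, called libraries here. Whether these are separate cultures is not said in the sources, so a p-value here reflects the spread among libraries alone, which may be technical. A cultured line is 1 lineage grown apart from a tissue, and no second colorectal line was analysed here. In such bulk samples, fewer cells of a state and less RNA per cell cannot be told apart.

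RPMI-1640 is a classical medium whose nutrients were chosen to support growth in culture, and HPLM (human plasma-like medium) holds amino acids, glucose, salts and other small molecules near their concentrations in human blood. Several transcription factors respond to nutrients or to chemical stress. NRF2, held in check by KEAP1, drives genes that detoxify electrophiles, make glutathione and regenerate NADPH, and SREBP2 drives cholesterol synthesis and uptake when membrane sterol is low. MondoA and its relative ChREBP respond to glucose phosphates and induce TXNIP and ARRDC4, while ATF4 is translated when amino acids run short and induces their synthesis and import. Mitotic genes are transcribed late in the cell cycle, and the genes of DNA replication earlier, at the entry into S phase.

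The 6 libraries held 14151527 to 30581810 reads assigned to genes, and RPMI-1640 library 1, with the fewest, stood apart from the other RPMI-1640 libraries. The chi-square of its counts per degree of freedom was 178 against library 2 and 227 against library 3, compared with 12.2 between those and 2.91 to 13.8 among the HPLM libraries. On the first principal component, with 48.7% of the variance, it lay at -90.2 while the other 5 libraries lay between 10.7 and 28.6, and the media separated on the second, with 37.9%. Mitochondrially encoded transcripts took 19.3% of its TPM, 28.8% and 30.2% in the other RPMI-1640 libraries and 29.6% to 38.7% in HPLM. Results are therefore given with all 6 libraries and with the 5 that remain without it. The markers listed for colonic epithelium summed to between 6940 and 7874 TPM in HPLM and between 6785 and 10508 TPM in RPMI-1640. Of these 1 of 11, CDX1, never reached 1 TPM. KRT18 and KRT8, keratins that many epithelia carry, were the largest parts, with means of 3217 and 1765 TPM in HPLM. There KRT20, LGALS4 and VIL1 had means of 929, 463 and 43.0 TPM, and CDX2, CDH17 and GPA33 of 3.23, 0.867 and 0.336 TPM. Lung markers summed to 2.57 to 3.84 TPM in HPLM and 3.61 to 9.21 TPM in RPMI-1640, with 4 of 7 never at 1 TPM and SFTPC and SFTA3 at 0 throughout. Fibroblast markers summed to 0.684 to 0.890 and 1.81 to 2.40 TPM (6 of 8 never at 1 TPM) and endothelial markers to 0.343 to 0.444 and 0.433 to 1.37 TPM (5 of 6). Leukocyte markers, 3 of 9 never at 1 TPM, summed to 15.7 to 22.2 TPM in HPLM and 31.5 to 54.3 TPM in RPMI-1640. CD14 gave 35.7 and 33.4 TPM of these sums in RPMI-1640 libraries 2 and 3 and at most 6.77 TPM in the others. The part of these transcripts in the results was not tested.

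With all 6 libraries limma called 999 of 16352 genes at an adjusted p under 0.05, which is 6.11%: 414 raised in HPLM (2.53%) and 585 lowered (3.58%). Of these 256 rose at least 2-fold (1.57%) and 367 fell at least 2-fold (2.24%). With 5 libraries it called 6705 genes (41.0%), 3172 raised (19.4%) and 3533 lowered (21.6%), of which 599 (3.66%) and 926 (5.66%) changed at least 2-fold. All 999 genes called with 6 libraries were called with 5 in the same direction. The 3 HPLM libraries all lay above the 3 RPMI-1640 libraries for 2502 genes (15.3%) and all below for 3344 (20.5%). Fold changes are log2 differences of TPM + 1, HPLM over RPMI-1640, with standard errors, and understate the change of genes of low TPM. Over all genes tested their median was -0.07 with 6 libraries and 0.00 with 5. The calls with 6 libraries depended on every library. They numbered 3 without HPLM library 1, 9 without HPLM library 2, 0 without HPLM library 3, 5 without RPMI-1640 library 2 and 241 without RPMI-1640 library 3, where limma gave an unadjusted p under 0.05 for 2705, 2534, 2642, 3107 and 3682 genes. With 5 libraries, leaving out 1 more left 4232 calls (without RPMI-1640 library 3) to 6397. Without RPMI-1640 library 2 or 3 as well, that medium had 1 library and the spread came from the HPLM libraries alone, so the lone library was assumed to vary as they do. The balance of directions depended on scaling: the raised share of calls with 6 libraries was 41.4%, against 54.5% after trimmed mean scaling (855 raised and 715 lowered), 51.9% after median centring (756 and 702) and 63.8% without mitochondrially encoded genes (979 and 556, with the median of all genes moved to 0.07). On recovered reads edgeR called 828 genes raised (5.66% of 14624) and 931 lowered (6.37%) with 6 libraries, and 4600 (31.5%) and 4631 (31.7%) with 5.

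Lists of genes with a known role are described below by the number of tested members that passed in each fit and by their median fold change. These counts are read beside all genes tested, of which 2.53% rose and 3.58% fell with 6 libraries. With 5 libraries 19.4% rose and 21.6% fell. Of the 16352 genes, 4052 had an unadjusted p under 0.05 in limma with 6 libraries. Where 3 values follow each other they belong to libraries 1, 2 and 3 of that medium. Gene positions are those of the GENCODE annotation on GRCh38.

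**Figure D1:**
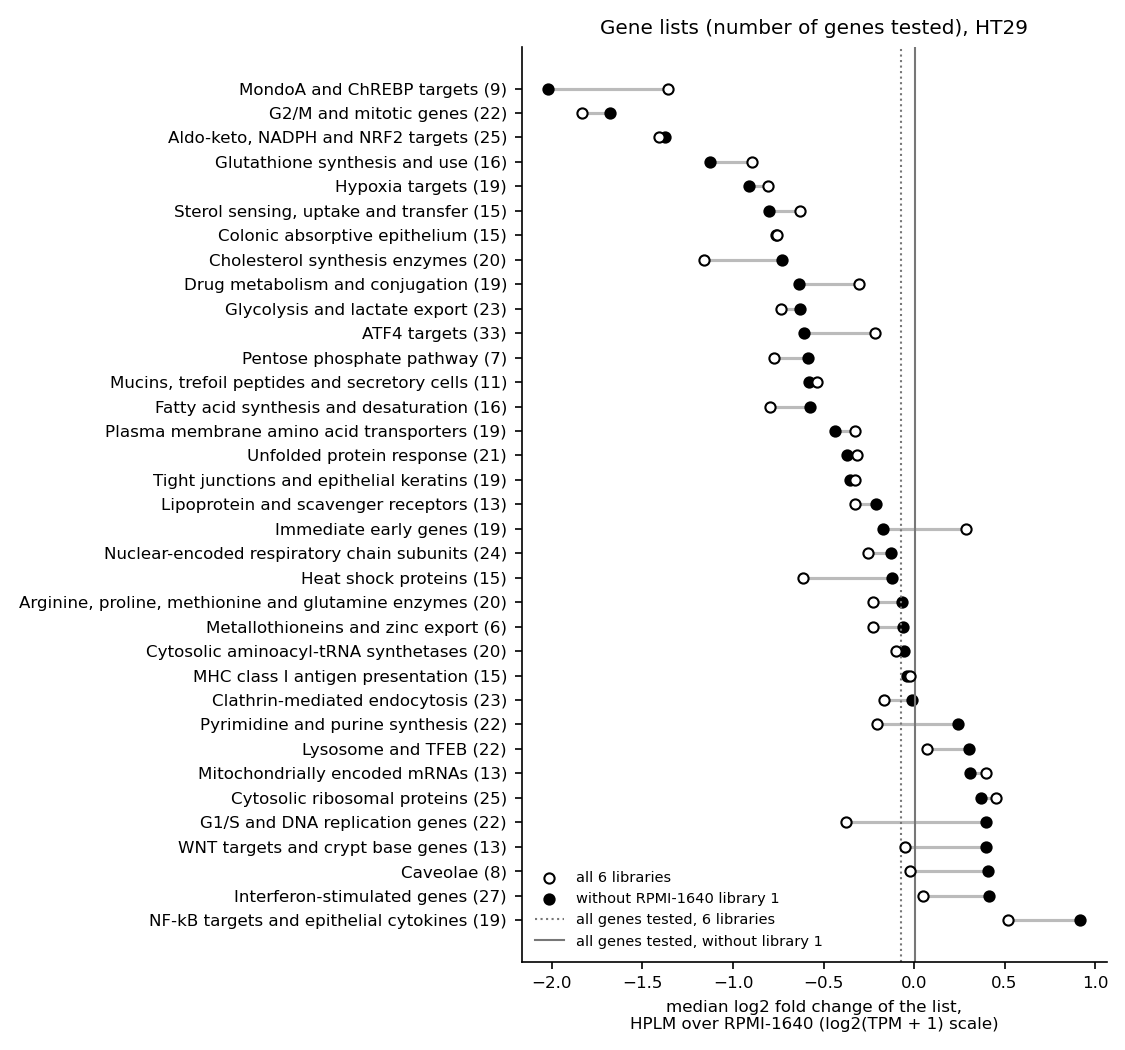
Median log2 fold change of each of 35 gene lists, HPLM over RPMI-1640, on the log2(TPM + 1) scale, with all 6 libraries (open points) and without RPMI-1640 library 1 (filled points), the number of genes tested in brackets; the dotted and solid lines mark the medians of all genes tested in these fits. The MondoA, G2/M and NRF2 lists lie farthest to the left in both fits, at -1.36, -1.83 and -1.41 with 6 libraries.

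The largest falls were among genes of the NRF2 program. Of 25 tested members of this list, which joins aldo-keto reductases, NADPH enzymes and redox proteins, 17 fell with 6 libraries and 24 with 5, with medians of -1.41 and -1.38. Of all genes tested 3.58% and 21.6% fell. For 22 members every HPLM library lay below every RPMI-1640 library, an order that 20.5% of all genes had. The list holds 5 aldo-keto reductases, which reduce aldehydes, ketones and steroids. AKR1B10 (ENSG00000198074, chromosome 7, 134527592 to 134541408), which reduces retinal and lipid aldehydes, stood at 36.8, 32.0 and 30.6 TPM in HPLM and at 869, 1584 and 1565 TPM in RPMI-1640. Library 1 was the lowest of its medium and still far above HPLM (-5.25 ± 0.27 with 6 libraries, adjusted p = 0.00289). AKR1C2 (ENSG00000151632, chromosome 10, 4987400 to 5018031), a hydroxysteroid dehydrogenase, read 2.89, 2.48 and 2.44 TPM in HPLM against 25.7, 186 and 187 TPM in RPMI-1640. Its close relative AKR1C1 gave 6.26, 6.77 and 6.25 TPM against 37.4, 207 and 181 TPM, and AKR1C3, which makes testosterone and prostaglandin F, gave 78.6, 73.6 and 66.9 TPM against 217, 473 and 491 TPM. In all 3 genes the groups did not overlap and library 1 lay between HPLM and the other RPMI-1640 libraries. These genes are close in sequence, so how the authors' counting shared reads among them bears on each value. AKR1C3 changed by -2.32 ± 0.33 with 6 libraries (adjusted p = 0.0189) and by -2.71 ± 0.11 with 5 (adjusted p = 6.95e-05, limma). The remaining aldo-keto reductase of the list, AKR1B1, which reduces glucose to sorbitol, gave -0.82 with 6 libraries and -1.06 with 5.

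The list also holds enzymes that handle quinones, aldehydes and thioredoxin. ALDH3A1 (ENSG00000108602, chromosome 17, 19737984 to 19748943), an aldehyde dehydrogenase, held 9.51, 9.19 and 8.39 TPM in HPLM and 60.1, 87.3 and 83.2 TPM in RPMI-1640, a change of -2.94 ± 0.19 (adjusted p = 0.00431) with 6 libraries and -3.11 ± 0.11 with 5. NQO1, the quinone reductase often used as the reporter of NRF2 activity, held 345, 334 and 302 TPM against 759, 903 and 955 TPM. It changed by -1.41 ± 0.16 (adjusted p = 0.0125). Thioredoxin reductase TXNRD1 was at 164, 167 and 137 TPM in HPLM and 530.4, 444 and 371 TPM in RPMI-1640, and its substrate thioredoxin, TXN, at 1029.8, 966 and 966 TPM and 2179.6, 1808 and 2280.5 TPM. Both were higher in every RPMI-1640 library, with changes of -1.51 ± 0.19 (adjusted p = 0.0132) and -1.07 ± 0.16 (adjusted p = 0.0190). The peroxiredoxin PRDX1 fell with 6 libraries (-1.27 ± 0.24, adjusted p = 0.0356), as did sulfiredoxin SRXN1, which repairs peroxiredoxins (-1.26 ± 0.23, adjusted p = 0.0338). HMOX1, the inducible heme oxygenase, had 3.45, 4.47 and 3.79 TPM in HPLM and 6.29, 17.0 and 21.0 TPM in RPMI-1640. Its libraries did not overlap, but it passed with 5 libraries (-2.03 ± 0.14, adjusted p = 2.66e-04) and not with 6 (-1.54 ± 0.41, adjusted p = 0.0820). Of the ferritin subunits, FTL fell with 5 libraries (-0.79 ± 0.11) and FTH1 gave -0.31 ± 0.16 (adjusted p = 0.160), the one member that passed in neither fit.

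The regulators themselves passed in neither fit. NFE2L2, which encodes NRF2, was at 50.3, 50.6 and 40.6 TPM in HPLM and 73.9, 51.7 and 39.8 TPM in RPMI-1640, a difference of -0.18 ± 0.25 (adjusted p = 0.707) with 6 libraries and 0.05 ± 0.16 (adjusted p = 0.832) with 5. KEAP1, its inhibitor, was at 35.1, 34.8 and 29 TPM and 57.8, 32.8 and 32.9 TPM, a difference of -0.27 ± 0.26 (adjusted p = 0.576) and -0.00 ± 0.12 (adjusted p = 0.996). For each of these genes the HPLM values lay close to those of RPMI-1640 libraries 2 and 3 and below library 1.

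Glutathione genes fell in part. Of 16 tested, 5 fell with 6 libraries and 12 with 5, with medians of -0.90 and -1.13. Both subunits of glutamate-cysteine ligase, which catalyses the first step of synthesis, were lower. The modifier subunit GCLM held 17.0, 17.2 and 13.8 TPM in HPLM and 60.3, 61.2 and 47.5 TPM in RPMI-1640 (-1.75 ± 0.18, adjusted p = 0.0104). The catalytic subunit GCLC held 44.0, 45.7 and 40.1 TPM and 84.0, 105 and 91.3 TPM (-1.09 ± 0.16, adjusted p = 0.0189). Both groups of 3 libraries were tight and did not overlap. The intestinal glutathione peroxidase GPX2 (-1.45 ± 0.18, adjusted p = 0.0132), glutathione reductase GSR (-1.30 ± 0.16, adjusted p = 0.0131) and the microsomal transferase MGST1 (-1.28 ± 0.20, adjusted p = 0.0231) also fell with 6 libraries. The cystine importer SLC7A11, which supplies cysteine for glutathione, read 43.4, 40.3 and 36.3 TPM in HPLM and 56.7, 93.5 and 77.3 TPM in RPMI-1640. All HPLM values were below all RPMI-1640 values, and the gene passed with 5 libraries (-1.07 ± 0.13, adjusted p = 0.00164) but not with 6 (-0.88 ± 0.22, adjusted p = 0.0677). GPX1 (0.13), GSTP1 (0.10) and MGST3 (0.15) did not pass with 5 libraries. Of 7 genes of the pentose phosphate pathway, a source of NADPH, 3 fell with 6 libraries and 4 with 5. Transketolase, TKT, held 133, 123 and 110.2 TPM in HPLM and 233, 358 and 365 TPM in RPMI-1640 (-1.35 ± 0.22, adjusted p = 0.0254). The malic enzyme ME1, another source of NADPH, held 39.9, 38.0 and 34.6 TPM and 156, 140.0 and 123 TPM (-1.86 ± 0.16, adjusted p = 0.00907).

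**Figure D2:**
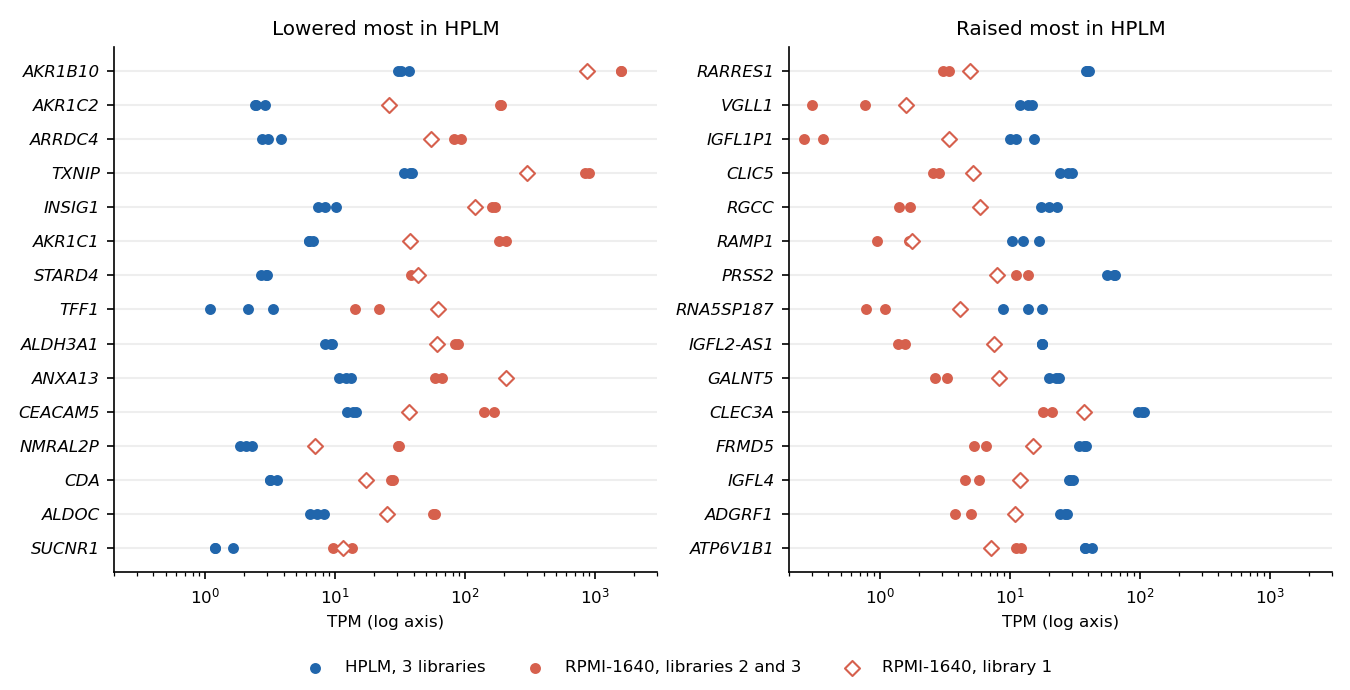
TPM in each library, on a log axis, of the 15 genes lowered most and the 15 raised most in HPLM, with HPLM libraries in blue, RPMI-1640 libraries 2 and 3 in red and RPMI-1640 library 1 as an open diamond. For AKR1B10 the HPLM libraries lie between 30.6 and 36.8 TPM and the RPMI-1640 libraries between 869 and 1584 TPM.

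Cholesterol synthesis fell along the pathway. Of 20 enzymes tested, 7 fell with 6 libraries and 16 with 5 (medians -1.16 and -0.73). For 19 every HPLM library lay below every RPMI-1640 library, an order that 20.5% of all genes had. The fewer calls with 6 libraries went with a higher level in RPMI-1640 library 1. For 14 of the 16 genes called with 5 it lay inside the range of libraries 2 and 3 or beyond it, away from HPLM. HMGCS1, an early enzyme of the pathway, had 32.0, 30.8 and 27.4 TPM in HPLM and 273, 95.2 and 86.6 TPM in RPMI-1640 (-2.09 ± 0.44, adjusted p = 0.0454). Library 1 was higher than the other RPMI-1640 libraries, and these were higher than HPLM. SQLE, the squalene epoxidase, held 59.9, 60.1 and 51.0 TPM in HPLM and 448, 233 and 241 TPM in RPMI-1640, a change of -2.35 ± 0.28 (adjusted p = 0.0128) and -2.04 ± 0.12 with 5. MSMO1 (ENSG00000052802, chromosome 4, 165327623 to 165343160), a sterol demethylase, held 23.3, 22.7 and 22.2 TPM and 99.9, 114 and 118 TPM (-2.23 ± 0.14, adjusted p = 0.00431). For SQLE library 1 was the highest of its medium and for MSMO1 the lowest, and HPLM was far below in both. IDI1 (-2.36 ± 0.44), DHCR7 (-1.94 ± 0.33) and MVD (-1.56 ± 0.16), of the isoprenoid and late sterol steps, also fell with 6 libraries. PMVK, phosphomevalonate kinase, was the enzyme whose libraries overlapped (0.17 with 5 libraries, adjusted p = 0.350).

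Genes that sense and import sterol fell in part, and a cholesterol exporter rose. Of 15 tested, 6 fell and 1 rose with 6 libraries, and 8 fell and 3 rose with 5 (medians -0.63 and -0.80). INSIG1, which retains SREBP in the endoplasmic reticulum, read 10.1, 8.27 and 7.4 TPM in HPLM and 119.5, 169 and 162 TPM in RPMI-1640 (-3.97 ± 0.20, adjusted p = 0.00289). STARD4 (ENSG00000164211, chromosome 5, 111496033 to 111512590), which carries cholesterol between membranes, read 2.99, 2.94 and 2.69 TPM and 43.1, 42.5 and 38.4 TPM, and is the gene with the smallest adjusted p of all (adjusted p = 0.00201). Library 1 lay next to libraries 2 and 3 for STARD4 and below them for INSIG1. SREBF2, which encodes SREBP2 and is its own target, held 21.2, 20.2 and 17.6 TPM in HPLM and 60.7, 43.9 and 36.9 TPM in RPMI-1640 (-1.20 ± 0.22, adjusted p = 0.0340). The groups did not overlap. ABCA1, the cholesterol exporter induced by sterol through LXR, went the other way: it held 4.50, 4.04 and 3.86 TPM in HPLM and 1.10, 2.27 and 1.53 TPM in RPMI-1640 (0.99 ± 0.20, adjusted p = 0.0425). MYLIP, an LXR target that encodes a ubiquitin ligase (0.38, adjusted p = 0.0479), and NPC2, which moves cholesterol out of lysosomes (0.44, adjusted p = 0.0234), rose with 5 libraries. Other members of the list did not move alike. ABCG1, another exporter, gave 0.59 with 6 libraries and -0.17 with 5, and SREBF1 -0.65 and -0.85. The genes of LXR gave -0.63 and -0.80 (NR1H3) and 0.31 and 0.26 (NR1H2).

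Fatty acid synthesis followed in part. Of 16 genes 5 fell with 6 libraries, and with 5 libraries 12 fell and 1 rose (medians -0.80 and -0.57). SCD (ENSG00000099194, chromosome 10, 100347124 to 100364834), the stearoyl-CoA desaturase, held 182, 182 and 155 TPM in HPLM and 869, 792 and 772 TPM in RPMI-1640 (-2.23 ± 0.15, adjusted p = 0.00513). ACSL1, a long-chain acyl-CoA synthetase, held 7.18, 6.37 and 6.06 TPM and 51.2, 30.1 and 26.2 TPM (-2.23 ± 0.27, adjusted p = 0.0128). ACSS2, the acetyl-CoA synthetase of the cytosol, changed by -2.00 ± 0.40 (adjusted p = 0.0409). In all 3 the RPMI-1640 libraries were higher throughout. FASN, the fatty acid synthase, was at 45.5, 41.6 and 38.7 TPM in HPLM and 122, 63.2 and 53.9 TPM in RPMI-1640 and passed with 5 libraries (-0.47 ± 0.13, adjusted p = 0.0255). The exception was ACSL5, an intestinal acyl-CoA synthetase, with 418, 399.9 and 366 TPM in HPLM and 433, 222 and 215 TPM in RPMI-1640. It rose with 5 libraries (0.85 ± 0.11, adjusted p = 0.00182), while library 1 lay above HPLM.

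Among glucose-responsive genes the arrestins were far lower in HPLM. Of 9 tested targets and partners of MondoA and ChREBP, 3 fell with 6 libraries and 6 with 5, with medians of -1.36 and -2.02. TXNIP (ENSG00000265972, chromosome 1, 145992435 to 145996600), an arrestin that limits glucose uptake and binds thioredoxin, read 37.4, 38.9 and 33.8 TPM in HPLM and 299.6, 891 and 839 TPM in RPMI-1640 (-4.02 ± 0.42, adjusted p = 0.0107). ARRDC4 (ENSG00000140450, chromosome 15, 97960698 to 97973838), its closest relative, read 3.04, 3.82 and 2.74 TPM and 54.8, 93.2 and 82.2 TPM, a change of -4.18 ± 0.24 (adjusted p = 0.00431) and -4.41 ± 0.14 with 5. Library 1 was the lowest RPMI-1640 library in both and did not reach the HPLM range. KLF10, a zinc finger repressor induced by glucose, changed by -1.80 ± 0.24 (adjusted p = 0.0148). MLXIPL, which encodes ChREBP, had 1.04, 1.18 and 1.24 TPM in HPLM and 0.862, 11.1 and 13.8 TPM in RPMI-1640. Here library 1 lay with HPLM, and the gene passed with 5 libraries (-2.63 ± 0.13, adjusted p = 9.87e-05) and not with 6 (-1.69 ± 0.76, adjusted p = 0.233). MLXIP, which encodes MondoA (-0.24, adjusted p = 0.124), and their partner MLX (0.24, adjusted p = 0.167) did not pass with 5 libraries.

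In glycolysis and lactate export 5 of 23 genes fell with 6 libraries and 13 with 5 (medians -0.73 and -0.63). ALDOC, an aldolase, held 8.23, 7.2 and 6.34 TPM in HPLM and 25.0, 58.1 and 56.5 TPM in RPMI-1640 (-2.44 ± 0.34, adjusted p = 0.0175). PFKFB3, which makes the activator of phosphofructokinase, held 11, 12.1 and 11.1 TPM and 33.2, 30.1 and 26.5 TPM (-1.32 ± 0.15, adjusted p = 0.0125). Both were lower in every HPLM library. GAPDH, PKM and ENO1, abundant enzymes of the lower pathway, passed in neither fit. GAPDH stood at 2664, 2489 and 2282 TPM in HPLM and 2758, 2423 and 2419.8 TPM in RPMI-1640 (0.03 ± 0.11 with 5 libraries, adjusted p = 0.848). PKM gave -0.04 ± 0.13 (adjusted p = 0.804) with 5 libraries and held 954 TPM in library 1 against 326 and 307 TPM in libraries 2 and 3. ENO1 gave 0.13 ± 0.14 (adjusted p = 0.467) and held 1875 TPM against 583 and 538 TPM.

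Mitotic genes fell together. Of 22 tested G2/M genes 21 fell with 6 libraries and all 22 with 5, with medians of -1.83 and -1.68, and for all 22 every HPLM library lay below every RPMI-1640 library. Of the 16352 genes as a whole, 20.5% had that order. CDK1 (ENSG00000170312, chromosome 10, 60778331 to 60794852), the mitotic kinase, held 44.2, 40.9 and 40.4 TPM in HPLM and 227, 154 and 152 TPM in RPMI-1640 (-2.04 ± 0.20, adjusted p = 0.0104). Its partners cyclin B1, CCNB1, with 59.5, 59.7 and 55.3 TPM and 224, 205 and 203 TPM, and cyclin B2, CCNB2 (ENSG00000157456, chromosome 15, 59105078 to 59125045), with 39.8, 40.5 and 36.8 TPM and 127, 149.7 and 149 TPM, fell by similar amounts (-1.84 ± 0.14 and -1.83 ± 0.15; adjusted p = 0.00714 and adjusted p = 0.00891). For the cyclins all 3 RPMI-1640 libraries lay near each other. AURKA, a spindle pole kinase (-2.10 ± 0.16, adjusted p = 0.00714), AURKB, of the chromosomal passenger complex (-2.03 ± 0.18, adjusted p = 0.00921), and TOP2A, which untangles chromosomes (-2.11 ± 0.23, adjusted p = 0.0118), changed by about as much. CDC20 (ENSG00000117399, chromosome 1, 43358955 to 43363203), the activator of the anaphase promoting complex, held 42.8, 45.3 and 36.6 TPM in HPLM and 179.9, 99.7 and 90.8 TPM in RPMI-1640 (-1.49 ± 0.28, adjusted p = 0.0366). Cyclin A2, CCNA2, held 19.2, 18.9 and 15.8 TPM and 206, 70.6 and 60.7 TPM (-2.36 ± 0.46, adjusted p = 0.0381). In these 2 genes library 1 was the highest of all. MKI67, the proliferation marker, was the member that missed with 6 libraries (-1.48 ± 0.41, adjusted p = 0.0862), with 21.6, 20.6 and 18 TPM in HPLM and 113, 43.5 and 38.8 TPM in RPMI-1640, and it passed with 5 (adjusted p = 0.00160).

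A short motif, the CCAAT box, was in most promoters of 3 lists described above, and 8 promoters are shown to let it be seen. Each stretch ends at the base before the gene's start in GENCODE, runs 5′ to 3′ on the gene's own strand and comes from RefSeq on GRCh38.p14. Stretches shorter than 250 bases lack the part between that start and the RefSeq start. The search counted its 250 bases from the RefSeq start. For CCNB2, printed with 182 bases, it placed the boxes 244, 120 and 87 bases before that start. Capitals mark a CCAAT box (CCAAT or, on the other strand, ATTGG), which NF-Y binds, unless another motif is named. The first 3 genes are mitotic, the next 2 of sterol metabolism, then 2 arrestins and an NRF2 target, chosen, with their matches known, from members that fell in both fits. In ARRDC4 the leftmost capitals are an E-box, CACGTG, and in TXNRD1 the second capitals are an antioxidant match, TGACNNNGC.
CDC20 promoter, chr1:43358731-43358954, plus strand: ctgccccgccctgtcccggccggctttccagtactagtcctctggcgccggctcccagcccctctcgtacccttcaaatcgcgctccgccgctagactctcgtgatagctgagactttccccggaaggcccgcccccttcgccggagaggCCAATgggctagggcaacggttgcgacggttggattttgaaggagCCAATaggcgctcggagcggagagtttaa
CCNB2 promoter, chr15:59104896-59105077, plus strand: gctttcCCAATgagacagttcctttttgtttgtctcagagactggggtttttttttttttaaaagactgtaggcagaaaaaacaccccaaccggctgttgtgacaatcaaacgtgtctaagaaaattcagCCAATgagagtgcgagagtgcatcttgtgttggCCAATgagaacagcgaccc
CDK1 promoter, chr10:60778081-60778330, plus strand: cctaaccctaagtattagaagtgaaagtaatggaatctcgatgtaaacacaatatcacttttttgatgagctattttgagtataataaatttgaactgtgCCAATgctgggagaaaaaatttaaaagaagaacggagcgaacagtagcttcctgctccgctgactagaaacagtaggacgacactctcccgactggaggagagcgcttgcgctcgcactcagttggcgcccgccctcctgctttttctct
STARD4 promoter, chr5:111512591-111512785, minus strand: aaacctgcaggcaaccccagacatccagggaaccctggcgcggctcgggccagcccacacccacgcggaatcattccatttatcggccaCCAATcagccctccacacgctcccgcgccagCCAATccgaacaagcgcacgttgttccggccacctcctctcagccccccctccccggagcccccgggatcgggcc
MSMO1 promoter, chr4:165327419-165327622, plus strand: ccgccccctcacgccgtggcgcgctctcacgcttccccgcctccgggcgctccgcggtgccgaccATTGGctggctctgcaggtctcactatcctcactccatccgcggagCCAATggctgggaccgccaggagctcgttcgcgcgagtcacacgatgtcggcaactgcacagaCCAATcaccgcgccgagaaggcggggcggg
TXNIP promoter, chr1:145996601-145996829, minus strand: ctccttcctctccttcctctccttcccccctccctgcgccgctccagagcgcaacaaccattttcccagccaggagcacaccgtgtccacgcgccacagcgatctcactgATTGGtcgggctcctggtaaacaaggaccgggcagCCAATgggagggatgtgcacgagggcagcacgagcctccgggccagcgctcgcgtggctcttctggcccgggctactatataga
ARRDC4 promoter, chr15:97960453-97960697, plus strand: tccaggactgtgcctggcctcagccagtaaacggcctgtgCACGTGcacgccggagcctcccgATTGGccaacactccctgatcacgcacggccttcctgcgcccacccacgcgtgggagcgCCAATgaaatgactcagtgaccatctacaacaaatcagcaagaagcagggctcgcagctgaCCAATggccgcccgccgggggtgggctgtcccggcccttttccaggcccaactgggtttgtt
TXNRD1 promoter, chr12:104215529-104215778, plus strand: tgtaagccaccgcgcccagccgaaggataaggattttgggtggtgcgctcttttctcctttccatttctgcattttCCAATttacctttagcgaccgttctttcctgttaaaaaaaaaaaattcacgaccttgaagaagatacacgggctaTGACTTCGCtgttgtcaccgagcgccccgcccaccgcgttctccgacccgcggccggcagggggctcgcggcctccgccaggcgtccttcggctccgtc

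Of 10398 tested genes with a promoter in the table, 3677 (35.4%) held a CCAAT box on either strand within 250 bases before the start that RefSeq gives. The box was in 15 of 17 G2/M promoters (88.2%), 12 of 15 of cholesterol enzymes (80.0%) and 7 of 8 of the MondoA list (87.5%), and in 13 of 27 of ATF4 targets (48.1%), 6 of 13 of the sterol sensing list (46.2%) and 6 of 17 of NRF2 targets (35.3%). Of 324 genes lowered at least 2-fold in both fits 241 had a promoter in the table and 127 held the box (52.7%), and of 233 raised as much 62 had one and 21 held it (33.9%). At least 2 boxes were in 9 of 17 G2/M and 8 of 15 cholesterol promoters, 26.1% of the lowered, 11.3% of the raised and 13.2% of all promoters. The antioxidant motif TGACNNNGC was in 3 of 17 NRF2 promoters (17.6%), 5 of 27 ATF4 target promoters (18.5%) and 12.4% of all, the E-box CACGTG in 3 of 8 MondoA promoters, 4 of 17 G2/M promoters (23.5%), 3 of 13 of the sterol sensing list (23.1%) and 9.01% of all, and the amino acid response motif TGATGNAA in 3 of 27 ATF4 target promoters (11.1%) and 1.44% of all. The sterol motif TCACNCCAC was in 0.914% of all promoters and in none of the 15 of cholesterol enzymes. All motifs were searched on both strands, and matches of different motifs overlapped in 107 promoters. A match of letters is not a shown binding site.

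Genes of DNA replication gave another pattern. Their unadjusted p-values are read beside all genes, of which 4052 of 16352 were under 0.05 in limma with 6 libraries. None of the 22 tested G1/S genes passed with 6 libraries, where 2 of them had an unadjusted p under 0.05 in limma and edgeR called 1 raised, and with 5 libraries 12 rose and 1 fell (medians -0.38 and 0.40). For all 12 raised genes library 1 lay at or past HPLM. Here and below this means inside the range of the HPLM libraries or beyond it, away from libraries 2 and 3. Over the list library 1 exceeded libraries 2 and 3 by a median of 2.71 on the log2 scale. The replicative helicase subunit MCM5 held 14.7, 14.3 and 12.6 TPM in HPLM, 7.01 and 6.21 TPM in RPMI-1640 libraries 2 and 3 and 51.8 TPM in library 1. UNG, the uracil DNA glycosylase, held 65.5, 60.4 and 57.7 TPM, 26.4 and 28.4 TPM and 285 TPM. In each the HPLM libraries were about the same, libraries 2 and 3 lower and library 1 the highest by far. With 5 libraries the changes were 0.96 ± 0.12 (adjusted p = 0.00149) and 1.13 ± 0.11 (adjusted p = 6.97e-04). RRM2, the ribonucleotide reductase subunit, had 426 TPM in library 1 and 32.5 and 29.8 TPM in libraries 2 and 3, beside 40.7, 37.6 and 35.1 TPM in HPLM. CDC6, which loads the helicase, was the member that fell with 5 libraries (-0.91 ± 0.11, adjusted p = 0.00163). Of 22 pyrimidine and purine synthesis genes 7 rose with 5 libraries and 1 fell. In 6 of the 7 library 1 lay at or past HPLM, and over the list it exceeded libraries 2 and 3 by a median of 1.12. The other of the 7 was XDH, the xanthine dehydrogenase of purine breakdown, where library 1 was the lowest (-0.50 from the mean of libraries 2 and 3). The gene that fell in both fits was CDA, the cytidine deaminase of pyrimidine salvage, with 3.14, 3.57 and 3.16 TPM in HPLM and 17.2, 27.0 and 28.0 TPM in RPMI-1640 (-2.52 ± 0.22, adjusted p = 0.00907).

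**Figure D3:**
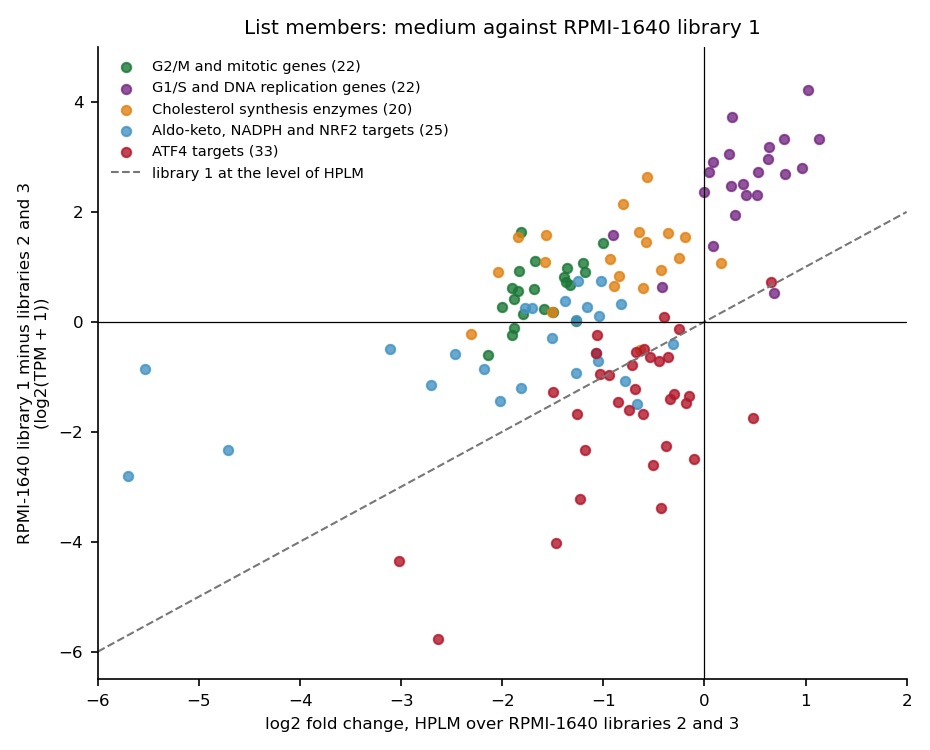
Members of 5 gene lists by their log2 fold change between HPLM and RPMI-1640 libraries 2 and 3 (horizontal) and by RPMI-1640 library 1 minus libraries 2 and 3 (vertical), both as differences of log2(TPM + 1); on the dashed diagonal library 1 equals the HPLM mean. G1/S genes lie high, with a median of 2.71 on the vertical axis, cholesterol enzymes at 1.11, G2/M genes at 0.61, NRF2 genes at -0.58 and ATF4 targets at -1.35.

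Library 1 differed from the other RPMI-1640 libraries in single genes by more than HPLM did. It lay farthest above them for FAM111B, a replication protease, with 198 TPM against 9.33 and 9.09 TPM and 28.3, 30.2 and 25.6 TPM in HPLM, and for CLSPN, the checkpoint adaptor claspin, with 57.2 TPM against 2.53 and 1.78 TPM. CLDN2, a pore-forming claudin, held 355 TPM against 19.9 and 22.6 TPM. It was farthest below them for NUPR1, a stress-induced regulator, with 1.42 TPM against 121 and 142 TPM and 21.5, 19.6 and 19.8 TPM in HPLM. Of the 3533 genes that fell with 5 libraries, library 1 lay inside or beyond the range of libraries 2 and 3 for 33.1%. It lay between them and HPLM for 27.6% and inside or past the HPLM range for 39.3%. Of the 3172 that rose these shares were 28.9%, 24.4% and 46.7%.

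**Figure D4:**
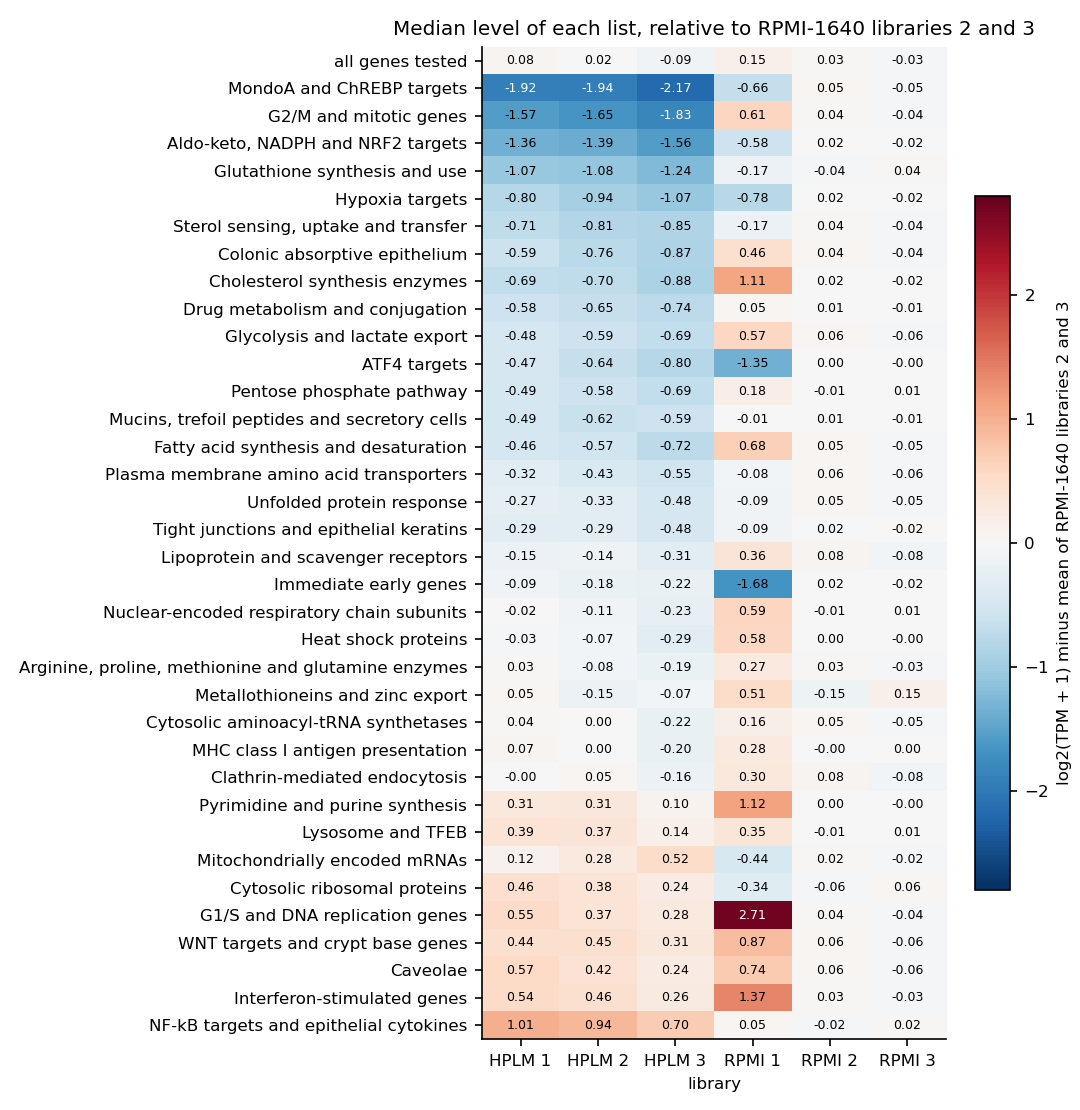
Median over each list of log2(TPM + 1) in each library minus the mean of RPMI-1640 libraries 2 and 3, as a coloured grid of 35 lists and all genes tested by 6 libraries. The G2/M, NRF2 and MondoA lists are low in the 3 HPLM libraries, and RPMI-1640 library 1 is the highest of the 6 for the G1/S list, at 2.71, and the lowest for the ATF4 list, at -1.35.

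ATF4 targets depended on the same library. Of 33 tested, 1 fell with 6 libraries, ALDH18A1 of proline synthesis (-0.98 ± 0.16, adjusted p = 0.0266), while with 5 libraries 25 fell and 2 rose (medians -0.22 and -0.61). In 20 of the 25 lowered genes library 1 lay at or past HPLM. ASNS (ENSG00000070669, chromosome 7, 97852118 to 97872542), the asparagine synthetase, held 237, 218 and 205 TPM in HPLM, 494 and 537 TPM in RPMI-1640 libraries 2 and 3 and 54.0 TPM in library 1. CHAC1, which degrades glutathione, held 36.2, 31.2 and 32.6 TPM, 93.4 and 94.7 TPM and 4.86 TPM. DDIT4, an inhibitor of mTORC1, held 48.1, 44.0 and 37.5 TPM, 358 and 355 TPM and 16.6 TPM. In all 3 the HPLM libraries sat between library 1 and the others. With 5 libraries the changes were -1.23 ± 0.11 (adjusted p = 6.10e-04), -1.47 ± 0.11 (adjusted p = 3.10e-04) and -3.02 ± 0.13 (adjusted p = 7.58e-05), and with 6 they were -0.15 ± 0.86, -0.13 ± 1.06 and -1.57 ± 1.15 and did not pass. PSAT1 (-0.86) and PHGDH (-0.61), of serine synthesis, CTH (-1.26), of cysteine synthesis, and MTHFD2 (-0.94), of mitochondrial folate metabolism, fell with 5 libraries. TRIB3, a pseudokinase of the stress response, held 275, 265 and 228 TPM in HPLM, 365 and 364 TPM in libraries 2 and 3 and 59.0 TPM in library 1 (-0.51 ± 0.12 with 5, adjusted p = 0.0161). DDIT3, which encodes CHOP, showed no difference that passed in either fit (0.73 ± 0.67 and -0.10 ± 0.10), and ATF3 gave 0.31 ± 0.41 and -0.18 ± 0.11. The members that rose with 5 libraries were ATF5 (0.66 ± 0.12, adjusted p = 0.00732), a factor of the same family, and PPP1R15A (0.48 ± 0.13, adjusted p = 0.0239), which directs dephosphorylation of eIF2alpha.

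Calls among other amino acid genes are given beside those of all genes, 6.11% with 6 libraries and 41.0% with 5. An unadjusted p under 0.05 in limma with 6 libraries was found for 4052 of all 16352 genes. No cytosolic aminoacyl-tRNA synthetase of 20 passed in limma or edgeR with 6 libraries, where 0 had an unadjusted p under 0.05 in limma, and with 5 libraries 4 fell and 1 rose. Among 19 plasma membrane amino acid transporters 1 fell with 6 libraries, SLC6A6, the taurine importer, with 16.3, 14.6 and 14.3 TPM in HPLM and 47.9, 54.8 and 45.8 TPM in RPMI-1640 (-1.65 ± 0.15, adjusted p = 0.00949). Its 6 libraries formed 2 tight groups. With 5 libraries 11 transporters fell and 4 rose, the largest rise being SLC6A20, a proline transporter (1.41 ± 0.12, adjusted p = 3.90e-04), with 7.82, 7.42 and 6.48 TPM in HPLM and 5.21, 2.16 and 2.01 TPM in RPMI-1640. The leucine importer SLC7A5 read 251, 232 and 205 TPM and 190.3, 329 and 297 TPM (-0.45 ± 0.13 with 5, adjusted p = 0.0298). Of 20 genes of arginine, proline, methionine and glutamine metabolism, 2 fell with 6 libraries, and with 5 libraries 7 fell and 3 rose. GOT1, the cytosolic aspartate aminotransferase, fell in both fits (-0.77 ± 0.15, adjusted p = 0.0415 with 6). ASS1, the argininosuccinate synthase, had 90.2, 83.6 and 77.3 TPM in HPLM, 249.98 and 258 TPM in libraries 2 and 3 and 41.2 TPM in library 1, and fell with 5 libraries (-1.59 ± 0.11, adjusted p = 2.68e-04). MAT2A, which makes S-adenosylmethionine, did not pass with 5 libraries (0.05 ± 0.17, adjusted p = 0.840).

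Stress and hypoxia genes fell in part. Beside them, 3.58% of all genes tested fell with 6 libraries and 21.6% with 5, where 19.4% rose. Of 21 genes of the unfolded protein response 1 fell with 6 libraries and 11 with 5 (medians -0.31 and -0.37). HSP90B1, a chaperone of the endoplasmic reticulum, was that 1 (-0.89 ± 0.17, adjusted p = 0.0366). HSPA5, its HSP70 partner, held 812, 778 and 692 TPM in HPLM and 828, 1406 and 1497 TPM in RPMI-1640 and passed with 5 (-0.93 ± 0.12, adjusted p = 0.00160). With 6 libraries 5 of 15 heat shock genes fell, and with 5 libraries 5 fell and 2 rose. HSPA1A, an inducible HSP70 whose near-identical copy is HSPA1B, held 75.5, 72.5 and 70.9 TPM and 163, 143 and 160.1 TPM (-1.08 ± 0.14, adjusted p = 0.0144), and HSPB1, a small chaperone, changed by -1.11 ± 0.18 (adjusted p = 0.0254). The groups did not overlap in HSPA1A and HSPA5, although library 1 came close to HPLM for HSPA5. Library 1 stood apart for constitutive chaperones, with 1956 TPM of HSPA8 against 209 and 157 TPM in libraries 2 and 3 and 515, 536 and 414 TPM in HPLM. Of 19 hypoxia targets 4 fell with 6 libraries, and with 5 libraries 14 fell and 1 rose (medians -0.80 and -0.91). CA9, a carbonic anhydrase and marker of HIF1 activity, held 73.8, 71.1 and 62.2 TPM in HPLM and 111, 248 and 264 TPM in RPMI-1640 (-1.88 ± 0.12 with 5, adjusted p = 1.92e-04; -1.48 ± 0.35 with 6, adjusted p = 0.0598). PLOD2 (-1.10 ± 0.14, adjusted p = 0.0135), a collagen lysyl hydroxylase, and P4HA2 (-1.11 ± 0.23, adjusted p = 0.0423), a collagen prolyl hydroxylase, were among the 4. NDRG1, a differentiation-related gene that hypoxia induces, gave the largest fall of the list with 5 libraries (-2.78 ± 0.12, adjusted p = 7.70e-05). VEGFA, the angiogenic factor, held 124, 121 and 123 TPM in HPLM, 164 and 161 TPM in libraries 2 and 3 and 20.1 TPM in library 1 (-0.40 ± 0.10 with 5, adjusted p = 0.0181). LOX, lysyl oxidase, was the target that rose with 5 libraries (0.47 ± 0.12, adjusted p = 0.0187).

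Genes of innate immunity are likewise read against 6.11% of all genes called with 6 libraries and 41.0% with 5. Unadjusted p-values are read against 4052 of all 16352 genes under 0.05 in limma with 6 libraries. Of 19 NF-kB targets and epithelial cytokines 3 rose with 6 libraries, and with 5 libraries 11 rose and 4 fell (medians 0.52 and 0.92). IL18 (ENSG00000150782, chromosome 11, 112143251 to 112164117), an epithelial cytokine activated by the inflammasome, held 57.8, 51.6 and 47.7 TPM in HPLM and 11.7, 15.4 and 18 TPM in RPMI-1640 (1.75 ± 0.20, adjusted p = 0.0125). CXCL3, a neutrophil chemokine (0.93 ± 0.17, adjusted p = 0.0352), and SAA1, an acute phase protein (1.25 ± 0.20, adjusted p = 0.0256), were the others, both at low levels of at most 5.28 TPM in any library. For all 3 every HPLM library was above every RPMI-1640 library. CCL20, a chemokine of mucosal epithelium, rose with 5 libraries (1.77 ± 0.11, adjusted p = 2.03e-04), and LCN2, an iron-scavenging lipocalin, fell with 5 (-1.70 ± 0.11, adjusted p = 1.92e-04), with 715, 718 and 703 TPM in HPLM and 652, 2171 and 2461 TPM in RPMI-1640. Of 27 interferon-stimulated genes 1 fell with 6 libraries, the oligoadenylate synthetase-like gene OASL (-1.09 ± 0.15, adjusted p = 0.0170). With 5 libraries 14 rose and 2 fell, and in 11 of the 14 library 1 lay at or past HPLM. XAF1, a proapoptotic interferon target, rose most of those with 14.3, 13.9 and 12.4 TPM in HPLM and 8.60, 3.06 and 2.47 TPM in RPMI-1640 (1.95 ± 0.12, adjusted p = 1.92e-04). Of 19 immediate early genes, which answer growth signals within minutes, 1 rose with 6 libraries, KLF6 (0.96 ± 0.15, adjusted p = 0.0214), a zinc finger factor, and with 5 libraries 4 rose and 7 fell. EGR1 had 184, 175 and 155 TPM in HPLM, 369 and 354 TPM in libraries 2 and 3 and 22.0 TPM in library 1 (-1.07 ± 0.12 with 5, adjusted p = 9.76e-04). None of 15 genes of class I antigen presentation passed in limma with 6 libraries, where 3 had an unadjusted p under 0.05 and edgeR called 1 raised, and with 5 libraries 2 rose and 2 fell.

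Markers of the colonic lineage fell in part. Among all genes tested 3.58% fell with 6 libraries and 21.6% with 5, where 19.4% rose. With 6 libraries 4052 of all 16352 genes had an unadjusted p under 0.05 in limma. Of 15 absorptive genes 3 fell with 6 libraries, and with 5 libraries 10 fell and 1 rose (medians -0.76 in both). CEACAM5 (ENSG00000105388, chromosome 19, 41708585 to 41729798), the carcinoembryonic antigen, held 13.8, 14.3 and 12.3 TPM in HPLM and 37.0, 167 and 139 TPM in RPMI-1640, a change of -2.74 ± 0.55 (adjusted p = 0.0415) and -3.41 ± 0.13 with 5. Library 1 lay below the other RPMI-1640 libraries and above HPLM. Its relative CEACAM6 held 123, 123 and 101 TPM and 215, 199.9 and 173 TPM, and passed with 5 libraries (-0.69 ± 0.14, adjusted p = 0.00877) and not with 6 (adjusted p = 0.0515). CEACAM genes share sequence, so split reads bear on these values. CDH17, an intestinal cadherin (-1.24 ± 0.18, adjusted p = 0.0182), and GPA33, an intestinal surface antigen (-1.42 ± 0.22, adjusted p = 0.0237), fell from levels of at most 4.00 TPM. CDX2, the intestinal master regulator, read 3.51, 3.23 and 2.95 TPM in HPLM and 3.79, 6.05 and 6.30 TPM in RPMI-1640 (-0.76 ± 0.11 with 5, adjusted p = 0.00259). KRT20, an intestinal keratin, and VIL1, of the brush border, did not pass with 5 libraries (0.09 ± 0.11, adjusted p = 0.535, and 0.31 ± 0.13, adjusted p = 0.0947). Of 11 mucins, trefoil peptides and secretory genes 2 fell with 6 libraries and, with 5, 7 fell and 1 rose. TFF1, a trefoil peptide, held 2.15, 1.08 and 3.35 TPM and 61.6, 14.2 and 21.7 TPM (-3.19 ± 0.55, adjusted p = 0.0300), and AGR3, a disulfide isomerase of secretory cells, held 28.8, 30.3 and 31.6 TPM and 79.8, 74.1 and 86.9 TPM (-1.38 ± 0.14, adjusted p = 0.0105). None of 13 WNT targets and crypt base genes passed with 6 libraries, where 0 had an unadjusted p under 0.05 in limma and edgeR called 0, and 7 rose with 5. For all 7 library 1 lay at or past HPLM. DKK1, a WNT antagonist, led them with 58.5, 56.1 and 52.0 TPM in HPLM, 20.1 and 21.1 TPM in libraries 2 and 3 and 123 TPM in library 1 (1.39 ± 0.11, adjusted p = 3.38e-04). Of 19 tight junction and keratin genes none passed in limma with 6 libraries, where 6 had an unadjusted p under 0.05 and edgeR called 2 raised, and with 5 libraries 9 fell and 4 rose. TJP3, a tight junction scaffold, fell most of them (-1.36 ± 0.14, adjusted p = 8.72e-04).

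Ribosomal and mitochondrial transcripts are abundant in every cell. Beside the unadjusted counts below, 4052 of all 16352 genes had an unadjusted p under 0.05 in limma with 6 libraries. Of 25 cytosolic ribosomal protein genes 13 rose with 5 libraries, where 19.4% of all genes did. None passed in limma with 6 libraries, where 13 had an unadjusted p under 0.05 and edgeR called 5 raised. The medians were 0.45 with 6 and 0.37 with 5. In 21 every HPLM library lay above every RPMI-1640 library, an order that 15.3% of all genes had. RPLP0, of the ribosomal stalk, held 2136, 1983 and 1726 TPM in HPLM and 993, 1263 and 1253 TPM in RPMI-1640 (0.63 ± 0.12 with 5 libraries, adjusted p = 0.00895). RPL3 held 1174, 1105 and 972 TPM and 811, 931 and 956 TPM (0.20 ± 0.12 with 5 libraries, adjusted p = 0.231). Of 13 mitochondrially encoded mRNAs 3 rose with 5 libraries (median 0.31), a share near that of all genes, among them MT-ND2, a complex I subunit (0.69 ± 0.14, adjusted p = 0.00853). With 6 libraries none passed in limma or edgeR, and 5 had an unadjusted p under 0.05 in limma. TPM sum to a fixed total of which these transcripts are a large part, so their level bears on the TPM of every other gene. Of 24 nuclear-encoded respiratory chain subunits none passed with 6 libraries, where 2 had an unadjusted p under 0.05 in limma and edgeR called 1 lowered, and 3 fell and 2 rose with 5. Of 6 metallothionein and zinc export genes MT1X (-1.04 ± 0.19, adjusted p = 0.0346) and SLC30A1 (-0.82 ± 0.17, adjusted p = 0.0466), the zinc exporter, fell with 6 libraries, while MT1E and MT2A rose with 5. Metallothioneins are near-identical copies, so reads may be split among them.

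The series concerns the delivery of mRNA in lipid nanoparticles, whose uptake passes through endocytosis and lipoprotein receptors. Calls in these lists are read against 6.11% of all genes with 6 libraries and 41.0% with 5, 21.6% lowered and 19.4% raised. Of 23 clathrin pathway genes 2 fell with 6 libraries, HIP1 (-1.34 ± 0.22, adjusted p = 0.0257) and the adaptor subunit AP2A2 (-0.72 ± 0.15, adjusted p = 0.0454), and with 5 libraries 6 fell and 2 rose. The clathrin heavy chain gene CLTC held 107, 108 and 88.0 TPM in HPLM and 218, 123 and 105 TPM in RPMI-1640. It passed neither with 6 libraries (-0.49 ± 0.29, adjusted p = 0.357) nor with 5 (-0.18 ± 0.14, adjusted p = 0.343). Of 13 lipoprotein and scavenger receptors 2 fell with 6 libraries, LRP10 among them (-0.82 ± 0.17, adjusted p = 0.0432), and with 5 libraries 5 fell and 2 rose. LRP1, a large endocytic receptor, read 12.7, 12.1 and 10.7 TPM in HPLM, 32.2 and 27.2 TPM in libraries 2 and 3 and 9.11 TPM in library 1 (-1.26 ± 0.13 with 5, adjusted p = 7.86e-04). Of 8 caveolae genes CAVIN2 (ENSG00000168497, chromosome 2, 191834302 to 191847255), of the caveolar coat, rose with 6 libraries. It held 10.6, 8.98 and 8.60 TPM in HPLM and 0.680, 0.324 and 0.318 TPM in RPMI-1640 (2.86 ± 0.17, adjusted p = 0.00431), with no overlap. PACSIN3, which shapes membranes, fell (-1.33 ± 0.24, adjusted p = 0.0346). CAV1, the main caveolin, was low in HT29, with 2.77, 2.75 and 2.82 TPM in HPLM, 1.28 and 0.434 TPM in libraries 2 and 3 and 10.1 TPM in library 1. In the lysosome list of 22, GPNMB (1.39 ± 0.18, adjusted p = 0.0146) rose and the alpha-galactosidase GLA (-1.33 ± 0.18, adjusted p = 0.0157) fell with 6 libraries, and with 5 libraries 9 rose and 4 fell.

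Genes of drug and retinoid metabolism moved in both directions. Of 19 genes of drug metabolism and conjugation 5 fell and 3 rose with 6 libraries, and 11 fell and 3 rose with 5. RARRES1, which retinoids induce, held 40.8, 39.0 and 38.5 TPM in HPLM and 4.91, 3.04 and 3.42 TPM in RPMI-1640 (3.10 ± 0.19, adjusted p = 0.00431). ADH1C, an alcohol dehydrogenase that also oxidises retinol, held 6.01, 6.75 and 6.18 TPM and 0.525, 0.632 and 0.703 TPM (2.18 ± 0.14, adjusted p = 0.00431), and ALDH1A3, which makes retinoic acid, held 22.2, 20.7 and 17.7 TPM and 10.1, 3.55 and 3.32 TPM (1.81 ± 0.38, adjusted p = 0.0454). No RPMI-1640 library reached the HPLM range in these 3. ALDH1A1, another retinal dehydrogenase, went the other way with 332, 322 and 287 TPM in HPLM and 1085, 972 and 1076 TPM in RPMI-1640 (-1.73 ± 0.15, adjusted p = 0.00891), and so did UGT1A6, a glucuronosyltransferase that shares exons with other UGT1A genes (-2.36 ± 0.27, adjusted p = 0.0125). Of the other genes raised most, VGLL1 (ENSG00000102243, chromosome X, 136532152 to 136556807), a cofactor of TEAD factors, held 14.7, 13.9 and 11.9 TPM in HPLM and 1.58, 0.762 and 0.303 TPM in RPMI-1640 (3.00 ± 0.27, adjusted p = 0.00921). CLIC5, a chloride channel protein of microvilli, held 30.1, 28.2 and 24.1 TPM and 5.24, 2.83 and 2.58 TPM (2.69 ± 0.25, adjusted p = 0.00953). PRSS2, a trypsinogen with close paralogs (2.40 ± 0.22, adjusted p = 0.00922), RGCC, a regulator of the cell cycle (2.56 ± 0.41, adjusted p = 0.0250), and RAMP1, a coreceptor for calcitonin-related peptides (2.53 ± 0.23, adjusted p = 0.00953), also rose. IGFL4 (1.95 ± 0.32), IGFL2-AS1 (2.32 ± 0.49), antisense to another IGFL gene, and the pseudogene IGFL1P1 (2.73 ± 0.50), all on chromosome 19, rose as well. The library kit keeps no strand, so reads of antisense and overlapping genes cannot be told apart. CLEC3A, FRMD5, GALNT5, ADGRF1 and the proton pump subunit ATP6V1B1 were the other protein-coding genes among the 15 raised most, with changes of 2.04, 2.04, 2.14, 1.95 and 1.88, and RNA5SP187, a ribosomal RNA pseudogene, rose by 2.38. Of the genes lowered most that no list holds, ANXA13, an intestinal annexin, held 12.1, 13.1 and 10.6 TPM in HPLM and 207, 66.2 and 58.9 TPM in RPMI-1640 (-2.87 ± 0.47, adjusted p = 0.0265), and SUCNR1, the succinate receptor, held 1.64, 1.18 and 1.19 TPM and 11.6, 13.6 and 9.56 TPM (-2.42 ± 0.18, adjusted p = 0.00714). NMRAL2P, a pseudogene, gave -2.71 ± 0.54 (adjusted p = 0.0409).

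The raised and lowered genes differed in kind. With 6 libraries 170 of 11778 protein-coding genes rose (1.44%) and 525 fell (4.46%), whereas of 1195 antisense genes 71 rose (5.94%) and 17 fell (1.42%), and of 856 lincRNA genes 45 rose (5.26%) and 18 fell (2.10%). Protein-coding genes were 72.0% of the genes tested, 41.1% of those raised and 89.7% of those lowered. With 5 libraries the shares were 65.6% and 81.4%. In that fit 17.7% of protein-coding genes rose and 24.4% fell, and of all genes 19.4% rose and 21.6% fell. Of antisense genes 25.4% rose and 15.8% fell, and of lincRNA genes 24.4% rose and 20.7% fell. The median level was 18.5 TPM for protein-coding genes and 2.68 and 2.66 TPM for antisense and lincRNA genes.

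The difference between media was not the same in both lines. An interaction term over all 12 libraries, 6 of each line, called 2379 genes (14.5%). The fold change between media was higher in HT29 than in H441 for 461 (2.82%) and lower for 1918 (11.7%). Without HT29 RPMI-1640 library 1 it called 6450 (39.4%), 1844 higher (11.3%) and 4606 lower (28.2%). The interaction takes 1 variance per gene for both lines although HT29 RPMI-1640 libraries spread more. Of 33 ATF4 targets 15 were lower in HT29 by this test (32 without that library), with a median fold change of 0.96 in H441, and in the unfolded protein response 15 of 21 were lower (19 without it), with a median of 1.19 in H441. Of 25 NRF2 targets 16 and of 22 G2/M genes 18 were lower (24 and 21 without it). Of 13 mitochondrially encoded mRNAs 9 had a higher fold change in HT29 (11 without it). Their median fold change was -0.49 in H441 and 0.40 in HT29 with 6 libraries, where none passed in HT29. Over all genes tested the median difference was -0.21. AKR1B10 gave -0.65 in H441, where its means were 6.79 TPM in HPLM and 11.3 TPM in RPMI-1640, and the lines differed by -4.60 ± 0.33 (adjusted p = 6.73e-05). HSPA1A, which fell in HT29, had means of 198 TPM in HPLM and 27.5 TPM in RPMI-1640 in H441, a difference of -3.89 ± 0.15 (adjusted p = 8.14e-07). STARD4 had means of 20.9 TPM in HPLM and 20.8 TPM in RPMI-1640 in H441 (-3.45 ± 0.13, adjusted p = 8.14e-07). RARRES1 was close to 0 in H441, at 0.0853 TPM in HPLM and 0.128 TPM in RPMI-1640, and differed by 3.15 ± 0.20 (adjusted p = 3.67e-05).

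**Figure D5:**
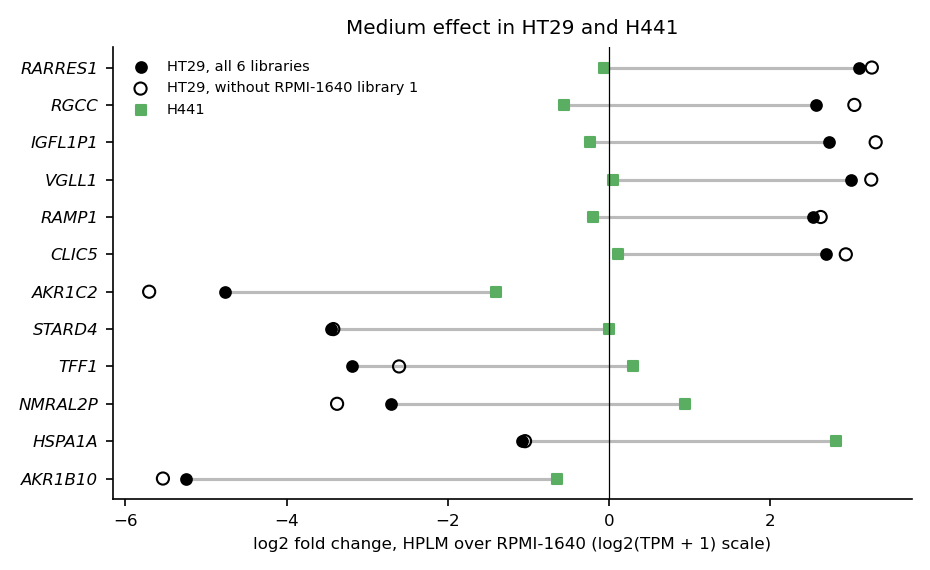
Log2 fold change, HPLM over RPMI-1640, on the log2(TPM + 1) scale in H441 (squares) and HT29 (filled points with 6 libraries, open points without RPMI-1640 library 1) for the 12 genes with the largest difference between the lines, 6 in each direction. The 12 were taken from genes called for the medium in HT29 in both fits, with a mean of at least 5 TPM there. AKR1B10 lies at -5.25 in HT29 and -0.65 in H441, and HSPA1A at -1.08 and 2.81.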

How the data were processed

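Poly(A) RNA of HT29 and H441 cells in 2 media was sequenced with a TruSeq kit named in the labels' protocols, of a kind that keeps no strand. Per the submitters' processing notes the tools were Trimmomatic 0.36, STAR 2.5.2b, Subread 1.5.2 and DESeq2, on GRCh38. The authors deposited TPM values for 58051 gene identifiers, of which 57447 matched a symbol. A second deposited table gives a signal per gene, counts divided by a size factor per library, for 16126 genes. All of its values came out as whole reads within 0.01, and the libraries' depth was taken from these. The authors' fold change and p columns were not used.

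The members and lists were chosen with earlier results of these data known, and so was the split by RPMI-1640 library 1. limma 3.58.1 (R 4.3.3) was run on log2(TPM + 1) for genes with TPM of at least 1 in at least 3 of 6 libraries, two-sided, with Benjamini-Hochberg adjustment over all 16352 genes and a threshold of 0.05, with 6 libraries and without RPMI-1640 library 1. Every adjusted p in the text is from limma. An interaction term over 12 libraries compared the lines, and edgeR 4.0.16 (quasi-likelihood) and DESeq2 1.42.0 were run on the recovered reads. The procedure was tested on simulated data. Named genes were the 15 raised most and 15 lowered most in both fits at a mean TPM of 5 or more, the 2 of each of 35 lists with the smallest adjusted p, members against their list's majority, a set chosen by function, the 6 in each direction that differed most between lines and the 5 in each direction for library 1. Those that differed between lines were taken from genes called in HT29 in both fits, with a mean of at least 5 TPM in HT29. Further list members are named after their values were seen. A few genes of that set are not reported here. The H441 tables served only for the comparison of lines.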

Additional observations from a re-analysis of the deposited data

Results flagged for a closer look

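Eligible here were genes called for the medium in HT29 in both fits, with a mean of at least 5 TPM there. Genes that changed in H441 alone were thus left out. Among the eligible genes the medium effect differed most between the lines for 12 genes, 6 in each direction. Values are from the limma interaction term, given as the log2 fold change of HT29 minus that of H441. Lower in HT29 were AKR1B10 (-4.60 ± 0.33, adjusted p = 6.73e-05), HSPA1A (-3.89 ± 0.15, adjusted p = 8.14e-07), NMRAL2P (-3.65 ± 0.60, adjusted p = 0.00368), TFF1 (-3.49 ± 0.65, adjusted p = 0.00658), STARD4 (-3.45 ± 0.13, adjusted p = 8.14e-07) and AKR1C2 (-3.36 ± 0.84, adjusted p = 0.0245). Higher in HT29 were RARRES1 (3.15 ± 0.20, adjusted p = 3.67e-05), RGCC (3.12 ± 0.46, adjusted p = 0.00212), IGFL1P1 (2.96 ± 0.58, adjusted p = 0.0084), VGLL1 (2.95 ± 0.31, adjusted p = 4.25e-04), RAMP1 (2.73 ± 0.25, adjusted p = 1.92e-04) and CLIC5 (2.58 ± 0.28, adjusted p = 4.38e-04). For each of these genes the difference kept its direction and its call with library weights, with trimmed mean scaling and without RPMI-1640 library 1. TFF1, IGFL1P1, RARRES1 and CLIC5 were below 1 TPM on average in both media of H441. No cause of these differences was tested.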

How the results depend on the processing

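With 6 libraries the count of raised genes (414) became 855 after trimmed mean scaling, 756 after median centring, 979 without mitochondrially encoded genes, 4015 with library weights, 828 by edgeR, 1460 by DESeq2 and 835 on scaled counts. The count of lowered genes (585) became 4235 with library weights, 931 by edgeR and 1834 by DESeq2. Without single libraries the raised ranged from 0 to 3172 and the lowered from 0 to 3533. Without RPMI-1640 library 1 the raised ranged from 1817 to 3349 and the lowered from 2354 to 3240 when 1 more library was left out, in 2 of these fits leaving 1 RPMI-1640 library, assumed to vary as the HPLM libraries do. The 2379 differences between lines became 6450 without that library and 7445 with library weights. The labels do not say whether library numbers pair the media. Deviations from the medium mean had correlations of 0.05, -0.10 and 0.17 between same-numbered libraries, and of -0.17 to 0.12 between the others. Within a medium the deviations of 3 libraries sum to 0, so these values cannot decide on pairing. With the library number as a replicate block limma called 0 genes raised and 0 lowered with 6 libraries, where 3611 had an unadjusted p under 0.05, and 2413 raised and 3386 lowered without RPMI-1640 library 1. With 6 libraries the log2 fold change of some genes named turned sign: by DESeq2 CAV1 (-0.28), EGR1 (-0.51), FAM111B (-1.15), GAPDH (0.06), GSTP1 (0.02), HSPA8 (-0.47), MCM5 (-0.46), TRIB3 (-0.0069) and UNG (-0.69); by edgeR CAV1 (-0.23), EGR1 (-0.51), FAM111B (-1.13), GAPDH (0.065), GSTP1 (0.0254), HSPA8 (-0.45), MCM5 (-0.44), TRIB3 (-0.007) and UNG (-0.67). Likewise with library weights ATF3 (-0.18), CLSPN (0.94), DDIT3 (-0.0191), EGR1 (-0.99), ENO1 (0.14), GAPDH (0.0447), GSTP1 (0.12), KEAP1 (0.0449), KRT20 (0.12), NFE2L2 (0.0436), PMVK (0.19), RRM2 (0.20), TRIB3 (-0.43), VEGFA (-0.37) and VIL1 (0.27); on scaled counts CHAC1 (0.005), GAPDH (0.0523), GSTP1 (0.0185), PHGDH (0.0374) and TFF3 (0.0135). Likewise after median centring GAPDH (0.0358), GSTP1 (0.0021), PHGDH (0.0151) and TFF3 (0.0224); after trimmed mean scaling GAPDH (0.0603), GSTP1 (0.0265), PHGDH (0.0341) and TFF3 (0.0083); without mitochondrially encoded genes ASNS (0.0089), CHAC1 (0.0317), GAPDH (0.13), GSTP1 (0.0925), PHGDH (0.10), TFF3 (0.0617) and VIL1 (0.0093). Without single libraries these spanned 0: ASNS (-1.23 to 0.42), ATF3 (-0.18 to 0.56), CAV1 (-0.41 to 1.06), CHAC1 (-1.47 to 0.54), CLSPN (-1.17 to 1.03), DDIT3 (-0.10 to 1.17), EGR1 (-1.07 to 0.93), ENO1 (-0.76 to 0.13), FAM111B (-0.65 to 1.51), GAPDH (-0.0856 to 0.0305), GSTP1 (-0.17 to 0.10), HSPA8 (-0.40 to 1.42), KRT20 (-0.31 to 0.0924), MCM5 (-0.47 to 0.96), MLX (-0.13 to 0.24), NFE2L2 (-0.39 to 0.0479), NUPR1 (-2.63 to 0.31), PHGDH (-0.61 to 0.23), PMVK (-0.38 to 0.17), RRM2 (-1.63 to 0.27), TFF3 (-0.23 to 0.14), TRIB3 (-0.51 to 0.79), UNG (-0.56 to 1.13), VEGFA (-0.40 to 1.08) and VIL1 (-0.43 to 0.31). Of 35 list medians with 6 libraries, those of the G1/S, pyrimidine and purine, immediate early, WNT, caveolae, aminoacyl-tRNA synthetase, interferon, lysosome, class I and metallothionein lists turned sign under at least 1 alternative, and the others, the NRF2, cholesterol, MondoA and G2/M lists among them, under none that was run. Causes of these shifts were not tested.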

Other observations

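LYZ, the lysozyme of Paneth cells, held 2092, 2006 and 1773 TPM in HPLM and 4356, 2427 and 2002 TPM in RPMI-1640 (-0.18 ± 0.13 without RPMI-1640 library 1, adjusted p = 0.332, limma). TFF3, the trefoil peptide of goblet cells, held 2.93, 1.41 and 2.14 TPM and 1.46, 2.35 and 2.96 TPM (-0.23 ± 0.21, adjusted p = 0.409). MT-ND1, of the mitochondrial complex I, held 21559.5, 25017 and 29639 TPM and 7818, 18706 and 18138 TPM (0.45 ± 0.15, adjusted p = 0.0521). The next 3 genes were below the level tested. MUC2, the gel-forming mucin of the colon, stood at 0.374, 0.401 and 0.266 TPM in HPLM and at 0.173, 0.814 and 0.752 TPM in RPMI-1640. LGR5, the stem cell receptor of the crypt, stood at 0.401, 0.256 and 0.310 TPM in HPLM, with 2.84 TPM in RPMI-1640 library 1 and 0.0995 and 0.125 TPM in libraries 2 and 3. APOB, the apolipoprotein of chylomicrons, was listed at 0 in all 6 libraries.

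With 6 libraries, of 733 processed pseudogenes 23 rose (3.14%) and 4 fell (0.546%), and of 165 miRNA genes 12 rose (7.27%) and 3 fell (1.82%). Of all genes 2.53% rose and 3.58% fell. With 5 libraries 20.2% of the processed pseudogenes rose and 9.41% fell, and of the miRNA genes 16.4% rose and 10.9% fell. Of all genes 19.4% rose and 21.6% fell in that fit. Pseudogenes share sequence with their parents, so the assignment of their reads is uncertain.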
